A study of Rattus norvegicus with 12 samples.

Results

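Mesothelial and epicardial markers were followed in RNA of endothelial cells (ECs) sorted from the ductus arteriosus (DA), the vessel that lets blood of the fetus pass from the pulmonary artery into the aorta, and from the aorta of perinatal Wistar rats. The 9 genes were Msln, Wt1, Gpm6a, Upk1b, Upk3b, Krt8, Krt18, Krt19 and Tcf21. They were found by symbol among the probe sets annotated to 1 gene only, and where a gene had several probe sets the one with the highest mean over the 12 arrays was used. Of the 9 genes, 8 had such a probe set, among 26468 probe sets that covered 14503 genes with 1 symbol, and 7 were bright enough to be tested. No probe set carried the name of Upk3b, which was therefore not analysed here.

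The 4 groups, with 3 Rat Gene 1.0 ST arrays each, were ECs of the DA and of the aorta of neonates taken 30 minutes after the onset of breathing (DA N and aorta N), and ECs of the DA and of the aorta of full-term fetuses taken on day 21 of gestation before breathing (DA F and aorta F). Both stages were delivered by cesarean section, and the labels name no transgene and no agent. Cells were released by enzyme digestion and sorted as CD31-positive and CD45-negative. RNA was accumulated over repeated sorts of tissue pooled from many litters, so a replicate was a pool of animals, and the p-values below measure the spread between such pools. DA and aorta tissue of 1 stage may have come from the same litters. The comparisons asked whether the markers differed between the DA and the aorta, and whether they differed between N and F.

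The mesothelium is the simple squamous epithelium that lines the body cavities and covers the great vessels within them, and the epicardium is the mesothelium of the heart. Cells of this layer carry keratins, the uroplakin proteins Upk1b and Upk3b and the surface glycoprotein mesothelin (Msln) together with the transcription factor Wt1, whereas Tcf21 is a transcription factor of epicardial cells that give rise to fibroblasts. None of these genes is restricted to mesothelium in every tissue. Gpm6a, a membrane glycoprotein of neurons, and Krt8, Krt18 and Krt19, keratins of simple epithelia, are widely known from other cells.

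The deposited values were log2 signals whose array medians lay between 5.63 and 5.76. The limit for testing was 4.44, the average of the lys spike, a bacterial transcript added to the RNA of each sample. Above it were 18690 probe sets, which limma fitted together, and those with a Benjamini-Hochberg adjusted p under 0.05 were called. The markers of the sort itself stood far apart from each other on the scale of the array. Pecam1, which encodes CD31, averaged 12.1, and Ptprc, which encodes CD45, averaged 3.40, below the average of the spike. The spike itself ran between 3.41 and 6.17, and in each of the 4 groups replicate 1 held its highest value and replicate 3 its lowest.

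Gpm6a was the member with the largest difference between the vessels, and it was lower in the DA. Its log2 signal was 7.17, 6.68 and 6.32 in the 3 DA N arrays, against 8.12, 8.01 and 7.46 in the 3 aorta N arrays. It was 6.74, 6.67 and 6.58 in the DA F arrays, against 8.11, 7.77 and 7.45 in the aorta F arrays. Each DA array lay below each aorta array, within a stage and across both stages.

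Over both stages the log2 fold change of Gpm6a in the DA over the aorta was -1.13 (SE 0.17, 95% interval -1.49 to -0.77, limma adjusted p = 0.000762), a ratio of 0.457. In N the group means were 6.72 ± 0.43 in the DA and 7.86 ± 0.36 in the aorta (SD, n = 3 each), and the log2 fold change was -1.14 (SE 0.23, limma adjusted p = 0.018). In F the means were 6.66 ± 0.08 in the DA and 7.78 ± 0.33 in the aorta (SD, n = 3 each), and the log2 fold change was -1.12 (SE 0.23, limma adjusted p = 0.0166). The vessel difference thus had nearly the same size in N and in F. In tissue sorted in bulk, fewer cells of a type and less RNA per cell cannot be told apart, and this holds for every value below.

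The call of Gpm6a over both stages held without any 1 of the 12 arrays, with log2 fold changes between -1.24 and -1.03. The calls within a stage did not. In N the limma adjusted p was 0.0803 without DA N replicate 2, 0.0661 without DA N replicate 3, 0.0896 without aorta N replicate 1 and 0.0835 without aorta N replicate 2. In F it was 0.0613 without DA F replicate 2, 0.0724 without DA F replicate 3, 0.0731 without aorta F replicate 1 and 0.0632 without aorta F replicate 2. In a fit on the N arrays alone the limma adjusted p in N was 0.0884, and after Benjamini-Hochberg the methods' t-test gave 0.36 in N and 0.138 in F.

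Arrays with the same replicate number deviated together in Gpm6a. Replicate 1 was the highest and replicate 3 the lowest array in each of the 4 groups, the same order as that of the lys spike. The deviations from the group mean were 0.45 and -0.40 for replicates 1 and 3 in DA N, 0.26 and -0.41 in aorta N, 0.08 and -0.08 in DA F, and 0.33 and -0.33 in aorta F. The part of the spike, or of what the replicate numbers stand for, in these levels was not tested. In a paired fit, with replicate numbers as blocks, the limma adjusted p of Gpm6a over both stages was 3.03e-06.

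The sequence before the start of Gpm6a is shown because this member carried the largest vessel difference. It is the RefSeq sequence of the 250 bases before the annotated start, at chr16:43706462-43706711 on the minus strand of GRCr8, given 5′ to 3′ with the letters GGGCGG, a GC box, in capitals.
Gpm6a: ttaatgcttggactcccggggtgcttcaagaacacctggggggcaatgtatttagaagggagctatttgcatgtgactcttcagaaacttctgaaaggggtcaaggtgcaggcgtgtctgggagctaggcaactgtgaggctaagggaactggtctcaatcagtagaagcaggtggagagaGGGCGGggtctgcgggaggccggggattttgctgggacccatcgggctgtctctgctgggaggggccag
RefSeq promoters of the same length were found for 7 of the 9 members, and those of Msln and Krt19 were not among them. GGGCGG, searched on both strands, occurred in 2 of these 7, Gpm6a and Krt18, and in 30.5% of all 33469 promoters in the table. TATAAA, searched in the same way, occurred in 1 of the 7, Krt8, and in 12.9% of all. A match of letters is a description and does not show a bound site.

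Msln differed between the vessels in the opposite direction and was higher in the DA. Mesothelin, its product, is a surface glycoprotein of mesothelial cells. The log2 signal was 6.23, 5.78 and 5.93 in the DA N arrays, against 5.40, 5.43 and 5.74 in the aorta N arrays. It was 6.15, 6.20 and 6.25 in the DA F arrays, against 5.52, 5.51 and 5.56 in the aorta F arrays. Each DA array lay above each aorta array, although in N the lowest DA array and the highest aorta array were only narrowly apart.

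Over both stages the log2 fold change of Msln was 0.56 (SE 0.10, 95% interval 0.35 to 0.77, limma adjusted p = 0.00244), a ratio of 1.48. The means were 5.98 ± 0.23 in DA N and 5.52 ± 0.18 in aorta N (SD, n = 3 each), with a log2 fold change of 0.46 that was not called (SE 0.14, limma adjusted p = 0.124). They were 6.20 ± 0.05 in DA F and 5.53 ± 0.02 in aorta F (SD, n = 3 each), with a log2 fold change of 0.67 that was called (SE 0.14, limma adjusted p = 0.0137). In the paired fit by replicate block the difference in N was called as well (limma adjusted p = 0.0413). The difference between the stages was tested and is given below.

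The call of Msln over both stages held without any 1 of the 12 arrays, with log2 fold changes between 0.499 and 0.615. The call in F was lost without DA F replicate 2, DA F replicate 3 or aorta F replicate 2, where the limma adjusted p was 0.0536, 0.0601 and 0.0587. In N no removal of 1 array produced a call. Unlike in Gpm6a, no replicate number was the highest in every group.

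**Figure D1:**
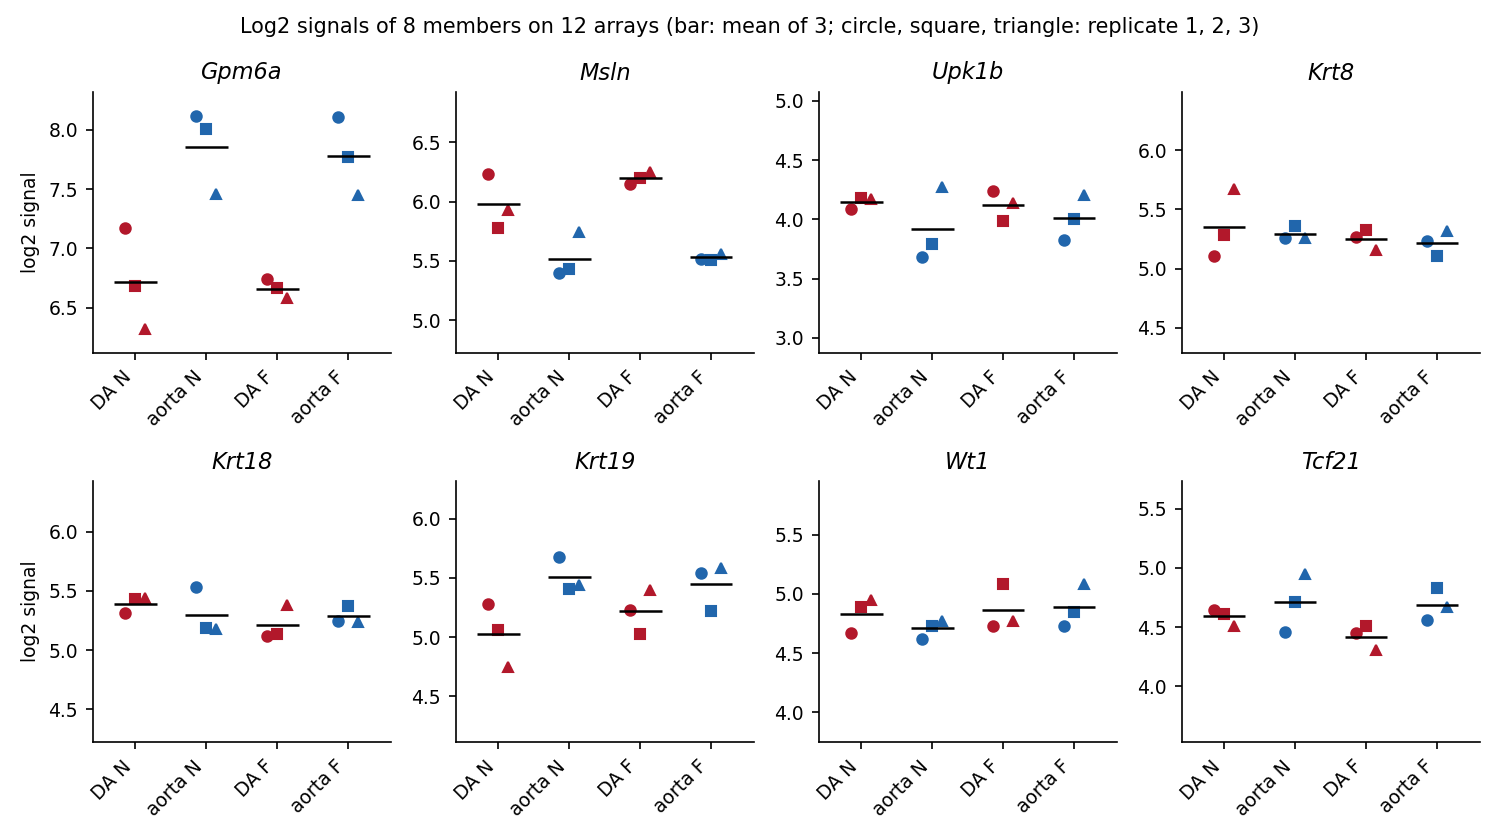
Log2 signal of the 8 members with a probe set on each of the 12 arrays. Red points are DA arrays and blue points aorta arrays, the marker shape gives the replicate number, the black bar is the group mean, and all panels span 2.2 log2 units around their own middle. Gpm6a (DA 6.32 to 7.17, aorta 7.45 to 8.12) and Msln (DA 5.78 to 6.25, aorta 5.40 to 5.74) were separated by vessel, and the other 6 overlapped over both stages.

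The 3 keratins among the members, which belong to the intermediate filaments of mesothelial cells, were not called. Krt19 came closest. Its log2 signal was 5.28, 5.06 and 4.75 in DA N, against 5.68, 5.41 and 5.44 in aorta N, and the DA arrays lay below the aorta arrays. In F it was 5.23, 5.03 and 5.40 in the DA, against 5.54, 5.22 and 5.58 in the aorta, and the vessels overlapped. Over both stages the log2 fold change was -0.35 (SE 0.12, 95% interval -0.61 to -0.10, limma adjusted p = 0.097).

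The call of Krt19 over both stages turned on the setting. In the paired fit by replicate block it was called lower in the DA (limma adjusted p = 0.0234), and without DA N replicate 1 it was called as well (log2 fold change -0.415, limma adjusted p = 0.0471). Within N the log2 fold change was -0.48 (limma adjusted p = 0.206), and within F it was -0.22 (limma adjusted p = 0.688).

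Krt8 and Krt18, which pair with each other in filaments, showed no separation of the vessels. Krt8 averaged 5.35 ± 0.29 in DA N and 5.29 ± 0.06 in aorta N, and 5.25 ± 0.09 in DA F and 5.22 ± 0.11 in aorta F (SD, n = 3 each). Krt18 averaged 5.39 ± 0.07 in DA N and 5.30 ± 0.20 in aorta N, and 5.21 ± 0.15 in DA F and 5.29 ± 0.07 in aorta F (SD, n = 3 each). The 95% intervals of the log2 fold change over both stages were -0.17 to 0.26 for Krt8 and -0.19 to 0.21 for Krt18, so that larger differences of these probe sets lay outside them.

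The identity of the probe sets behind both keratins was less certain than that of the other members. Probe sets of this array are numbered largely along the genome, and the 20 nearest named probe sets by number lay, for 18 to 20 of 20, on the chromosome of the gene itself for Msln, Wt1, Gpm6a, Upk1b, Krt19 and Tcf21. For the brightest Krt8 probe set all 20 lay together on a chromosome other than that of Krt8. The second Krt8 probe set, with all 20 neighbours on the chromosome of the gene, averaged 4.33, below the spike, and its DA minus aorta difference was -0.19 on the log2 scale. For none of the 3 Krt18 probe sets did most neighbours share the chromosome of Krt18, and their differences were 0.01, 0.05 and 0.12. For the Krt18 probe set used here, the commonest chromosome held only 5 of the 20 neighbours. The numbers there do not follow the genome, so the neighbours cannot place this probe set. The probe sets used for Acta2 and Pecam1 carry numbers of the same range and were not checked in this way. Where in the genome these probe sets match was not tested.

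The transcription factors stood close to the spike and were not called. Wt1, a zinc finger factor of mesothelium and epicardium, was 4.67, 4.89 and 4.95 in DA N, against 4.62, 4.73 and 4.77 in aorta N, and 4.73, 5.08 and 4.77 in DA F, against 4.73, 4.85 and 5.08 in aorta F. Its vessels overlapped in both stages, and the log2 fold change over both stages was 0.05 (95% interval -0.16 to 0.26, limma adjusted p = 0.892). Replicate 1 was the lowest array of Wt1 in every group.

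Tcf21 was 4.64, 4.61 and 4.51 in DA N, against 4.46, 4.71 and 4.95 in aorta N. In F it was 4.45, 4.51 and 4.31 in the DA, against 4.56, 4.83 and 4.67 in the aorta, with the DA arrays below the aorta arrays. The log2 fold change over both stages was -0.19 (95% interval -0.40 to 0.02, limma adjusted p = 0.336).

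The uroplakin Upk1b, a tetraspanin of urothelium and mesothelium, did not reach the spike on average. Its log2 signal was 4.09, 4.18 and 4.17 in DA N, against 3.68, 3.79 and 4.27 in aorta N, and 4.24, 3.99 and 4.14 in DA F, against 3.83, 4.0 and 4.21 in aorta F. The vessels overlapped in both stages. In a fit without the limit on low signals, its log2 fold change over both stages was 0.17 (SE 0.12, 95% interval -0.08 to 0.42, limma adjusted p = 0.646).

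Over both stages 1 of the 7 members tested was called higher in the DA and 1 lower, beside 3.19% of all probe sets called higher and 4.93% called lower, or 8.12% in either direction. In N 1 of 7 was called, beside 3.14% of all, and in F 2 of 7, beside 3.77% of all. In the paired fit by replicate block 3 of 7 were called over both stages, beside 17.8% of all, 2 of 7 in N, beside 7.27% of all, and 2 of 7 in F, beside 10.4% of all. The median log2 fold change of the 7 members over both stages was 0.01, against -0.00 over all probe sets tested. The members did not move together, since the called ones, Msln and Gpm6a, went in opposite directions.

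**Figure D2:**
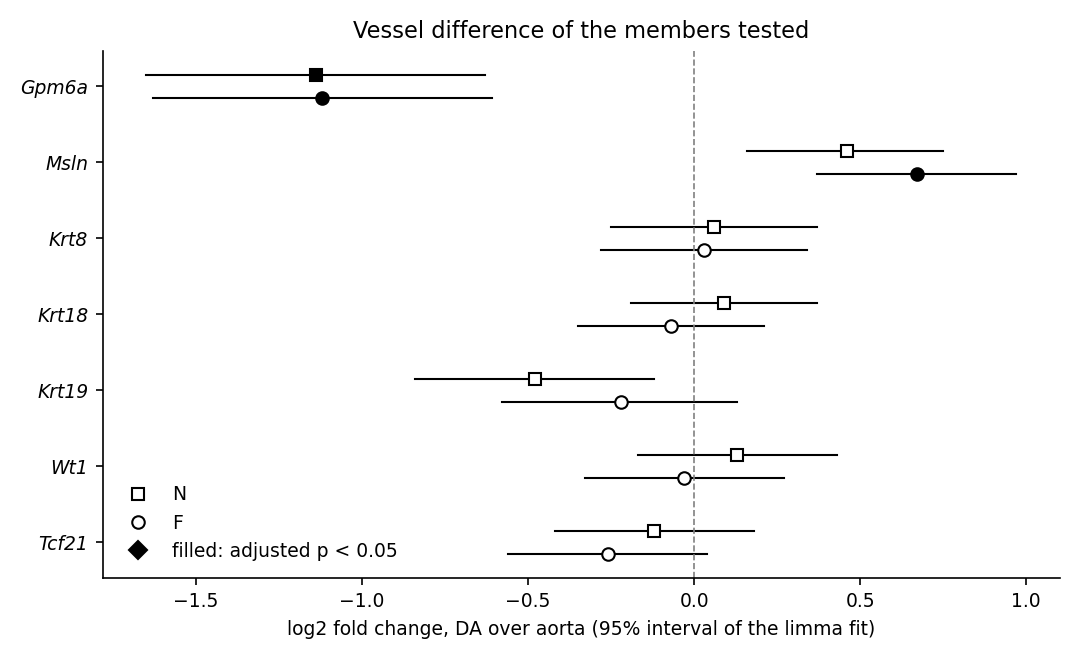
Log2 fold change of the DA over the aorta for the 7 members tested, in N (squares) and in F (circles). Lines are 95% intervals of the limma fit and filled markers have an adjusted p under 0.05. Gpm6a lay at -1.14 in N and -1.12 in F, Msln at 0.46 in N and 0.67 in F, and the intervals of the other members in F included 0, as did those in N except that of Krt19.

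Between the stages the members hardly differed. In the DA the log2 fold changes of N over F ran from -0.22 (Msln, 95% interval -0.51 to 0.08) to 0.18 (Krt18, 95% interval -0.10 to 0.46), and Gpm6a had 0.06 (95% interval -0.45 to 0.57). In the aorta they ran from -0.18 (Wt1, 95% interval -0.48 to 0.12) to 0.09 (Gpm6a, 95% interval -0.42 to 0.60). By limma 0 of 7 members were called in the DA, beside 0.00535% of all probe sets, and 0 of 7 in the aorta, beside 0% of all. At an unadjusted p under 0.05 the count of members was also 0 in each vessel, and so it was with the methods' t-test.

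The vessel difference itself was compared between N and F by an interaction contrast. For Gpm6a the difference of the log2 fold changes was -0.03 (SE 0.33, 95% interval -0.75 to 0.69), and for Msln it was -0.21 (SE 0.19, 95% interval -0.63 to 0.21). By limma 0 of 7 members were called, beside 0% of all probe sets, and 0 of 7 had an unadjusted p under 0.05. The call of Msln in F and its absence in N are thus not shown to differ, and the intervals leave room for differences in either direction.

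The level of most members was low on the scale of the array. As a gauge, the 1127 probe sets of olfactory receptor genes, which few cells outside the nose are known to use, had a median of 3.06 and a 95th percentile of 4.77 over the 12 arrays. Gpm6a, with a mean of 7.26, lay above 100% of them and Msln, with 5.81, above 99.6%. Krt18 and Krt19 lay above 98.4%, Krt8 above 98.3%, Wt1 above 95.4%, Tcf21 above 93.1% and Upk1b above 83.9%. The affinities of probe sets differ, so that these positions do not rank the amounts of RNA, and a low signal does not show that a gene was silent. Of the olfactory receptor probe sets, 97 (8.61%) reached the mean of the spike as well.

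**Figure D3:**
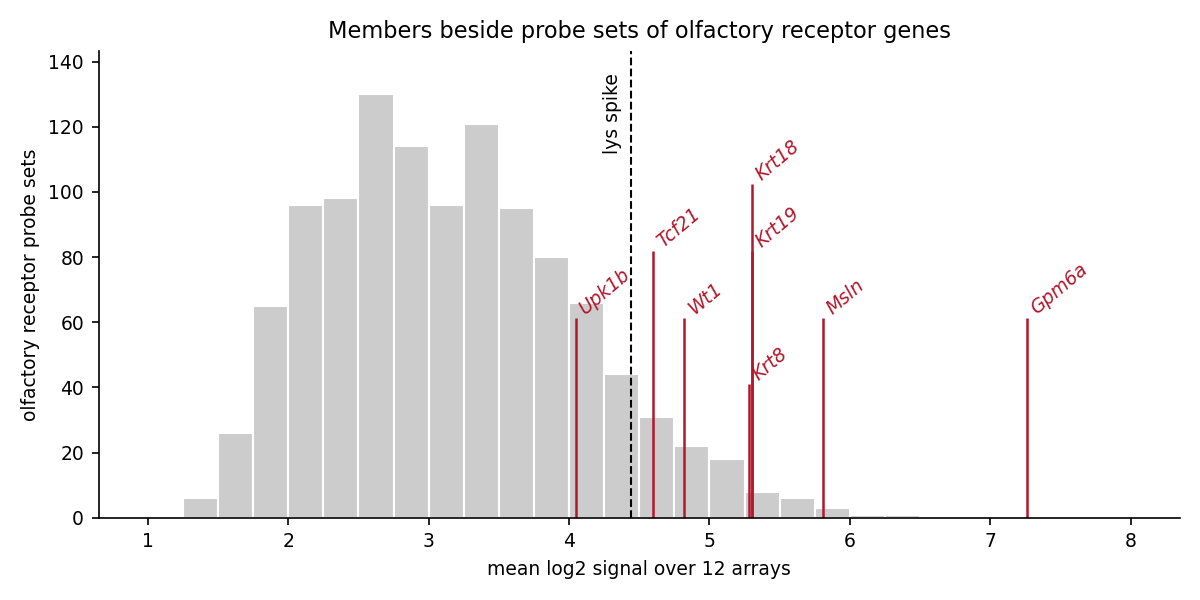
Histogram of the mean log2 signal over 12 arrays of 1127 olfactory receptor probe sets (grey, number of probe sets per bin) with the mean of each member (red lines, whose heights carry no value) and of the lys spike (dashed line, 4.44). Upk1b lay left of the spike, Tcf21 and Wt1 lay within the right tail of the olfactory receptors, and Gpm6a lay beyond all of them.

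A further list of 20 genes known from mesothelium and epicardium was set beside the members. Of these, 17 had a probe set and 12 were tested. Over both stages 2 of the 12 were called higher in the DA, beside 3.19% of all probe sets, and none lower, beside 4.93%. The median log2 fold change of the list was 0.05. The called genes were Tbx18 and Aldh1a1, and neither is restricted to mesothelium.

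Tbx18, a T-box transcription factor of the epicardium and of vascular mural cells, was 10.82, 10.87 and 10.88 in DA N, against 9.73, 9.63 and 9.77 in aorta N, and 11.00, 10.83 and 10.96 in DA F, against 9.83, 9.78 and 9.71 in aorta F. Its vessels were separated by a wide margin in both stages, with a log2 fold change of 1.15 over both (SE 0.07, limma adjusted p = 8.78e-07). Aldh1a1, a retinaldehyde dehydrogenase, was 8.64, 7.80 and 7.46 in DA N, against 7.00, 6.27 and 5.76 in aorta N, and 7.78, 7.49 and 7.29 in DA F, against 6.96, 5.99 and 6.22 in aorta F. The DA arrays lay above the aorta arrays, and the log2 fold change over both stages was 1.38 (SE 0.25, limma adjusted p = 0.00374). As in Gpm6a, replicate 1 was the highest array of Aldh1a1 in every group. Within the stages Aldh1a1 was called in N (log2 fold change 1.62, limma adjusted p = 0.0255) and not in F (1.13, limma adjusted p = 0.125).

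Krt7, another keratin of simple epithelia, depended on the probe set. The probe set named Krt7 in the platform table gave a log2 fold change of 0.26 over both stages that was not called (SE 0.08, limma adjusted p = 0.093) and that the paired fit by replicate block called (limma adjusted p = 0.0288). Of its 20 nearest named probe sets by number 1 lay on the chromosome of Krt7. Its number lies near that of the Krt18 probe set used here, where numbers do not follow the genome, so this count cannot place it.

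A second probe set has no symbol in that table and is assigned to Krt7 by the study, and it was added after the values of the list had been seen. Of its 20 neighbours 19 lay on the chromosome of Krt7. Its log2 signal was 7.11, 6.82 and 6.93 in DA N, against 6.49, 5.96 and 6.22 in aorta N, and 7.46, 7.16 and 6.77 in DA F, against 6.48, 6.02 and 5.69 in aorta F. Each DA array lay above each aorta array. The log2 fold change of Krt7 by this probe set was 0.90 over both stages (SE 0.16, limma adjusted p = 0.00275), a call that held without any 1 of the 12 arrays. In F it was 1.06 and called (limma adjusted p = 0.0154), and this call held in 8 of the 12 fits without 1 array. In N it was 0.73 and not called (limma adjusted p = 0.131), also without any 1 array, while the paired fit by replicate block called it (limma adjusted p = 0.00573). Over both stages this probe set would make 3 of the 12 genes called higher in the DA in place of 2, beside 3.19% of all probe sets.

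Other markers of the layer were at low signals. Aldh1a2, the retinaldehyde dehydrogenase of mesothelium and epicardium, averaged 4.12 and Bnc1, a zinc finger factor of mesothelium, averaged 4.18. Both means were below that of the spike, as were those of Calb2, Dmkn and Upk3bl1, although Bnc1 reached 4.71 on aorta F replicate 3. The summed linear signal of the 17 genes was 2911 to 3030 in DA N and 1744 to 1799 in aorta N, and 2825 to 3032 in DA F and 1737 to 1839 in aorta F. That of the 8 members was 334 to 399 in DA N and 424 to 517 in aorta N, and 355 to 356 in DA F and 425 to 509 in aorta F. The members' sum was lower in the DA without overlap, in the direction of Gpm6a, its brightest term. The sum of the 17 genes was higher in the DA without overlap, in the direction of Tbx18, whose log2 signal averaged 10.32. Of the 12 of these genes tested, 10 were not called over both stages.

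Some markers of other cells that the sorts could hold also differed between the vessels. The smooth muscle list had 8 genes tested, with a median log2 fold change of 0.50. Of these, 4 were called higher in the DA over both stages, beside 3.19% of all probe sets. They were the actins Actg2 (1.52) and Acta2 (0.58), the actin-binding protein Tagln (1.03) and the intermediate filament protein Des (0.73), all as log2 fold changes. Myh11 (0.42), Cnn1 (0.38), Lmod1 (0.05) and Smtn (-0.0) were not called. Actg2 was 8.87, 8.58 and 8.04 in DA N, against 6.99, 6.98 and 6.82 in aorta N, and 8.52, 8.36 and 7.88 in DA F, against 6.81, 6.72 and 6.85 in aorta F. The summed linear signal of the list was 3229 to 4140 in DA N and 2180 to 2450 in aorta N, and 3146 to 3307 in DA F and 2031 to 2373 in aorta F. Msln, Tbx18 and Aldh1a1 were higher in the same DA arrays, and the part of these cells in their differences was not tested.

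Gpm6a, which was lower in the DA, was set beside endothelial genes. Among 13 endothelial genes tested, 2 were called lower in the DA over both stages, beside 4.93% of all probe sets. They were Cldn5, a tight junction protein (log2 fold change -0.62), and Flt1, a receptor of vascular endothelial growth factor (-0.55). The other 11 were not called, with log2 fold changes from -0.23 (Robo4) to 0.15 (Egfl7). Among these, Pecam1 had -0.14 and Cdh5, an endothelial cadherin, had -0.05. The median log2 fold change of the 13 genes was -0.16. The summed linear signal of the 13 genes was 24285 to 25868 in DA N and 26460 to 27528 in aorta N, and 24189 to 24969 in DA F and 25301 to 27544 in aorta F. The part of the endothelial share of the sorts in the difference of Gpm6a was not tested.

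Since Gpm6a is also a neuronal gene, 14 neural and Schwann cell genes were set beside it. Of the 11 with a probe set 7 were tested. Over both stages 2 of the 7 were called, both higher in the DA, beside 3.19% of all probe sets. Stmn2, a microtubule regulator of neurons, was 6.24, 6.02 and 5.76 in DA N, against 5.27, 5.17 and 5.08 in aorta N, and 6.09, 5.91 and 5.56 in DA F, against 5.04, 4.82 and 4.72 in aorta F. The log2 fold change of Stmn2 was 0.91 over both stages (SE 0.12, limma adjusted p = 0.000268). In every group replicate 1 was the highest and replicate 3 the lowest array of Stmn2, as in Gpm6a. Gpm6b, the close relative of Gpm6a, had a log2 fold change of 0.38 (limma adjusted p = 0.0296), which lost its call without any 1 of 10 of the 12 arrays (limma adjusted p 0.0515 to 0.0681), all but aorta N replicates 1 and 3. The other 5 genes tested were not called, with log2 fold changes of -0.23 (Th), -0.14 (Sox10), -0.13 (Ngfr), -0.12 (Gap43) and 0.03 (Tubb3), and the list median was -0.12. S100b, Snap25, Elavl4 and Cdh19 averaged below the spike.

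Epithelial genes gave the context for the keratins. Of 12 with a probe set 7 averaged below the spike, among them Cdh1 and Epcam, adhesion proteins of epithelia. Of the 5 tested by limma none was called over both stages, beside 8.12% of all probe sets, and their median log2 fold change was 0.08. Of 7 fibroblast genes tested, set beside Tcf21, the collagen gene Col1a2 was called higher in the DA (log2 fold change 0.30). The collagen gene Col1a1 (-0.48) and the matrix gene Fbln1 (-0.50) were called lower, and the list median was 0.15. Among all probe sets 3.19% were called higher and 4.93% lower. The call of Col1a2 was lost without any 1 of 10 of the 12 arrays (limma adjusted p 0.05 to 0.0758), and kept only without DA F replicate 3 or without aorta N replicate 3.

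Of 6 cardiomyocyte genes tested, 1 was called over both stages, beside 8.12% of all probe sets in either direction. It was the troponin gene Tnnt2, which was lower in the DA (log2 fold change -0.70), and the list median was -0.09. Of 3 leukocyte genes tested, 1 was called, beside the same 8.12% of all probe sets, and the list median was -0.31. The gene called was the lipopolysaccharide co-receptor gene Cd14, with a log2 fold change of -0.57. Its call was lost without DA F replicate 2, DA F replicate 3, DA N replicate 2 or aorta N replicate 1, where the limma adjusted p was 0.0604, 0.0532, 0.0646 and 0.0581.

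**Figure D4:**
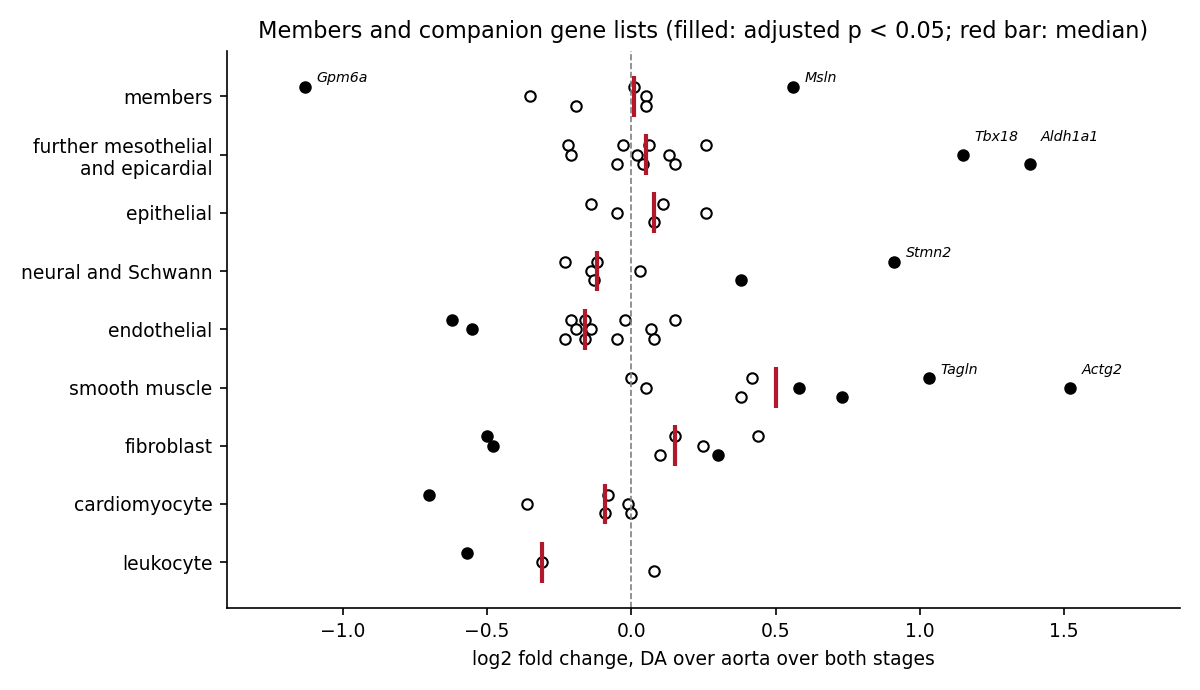
Log2 fold change of the DA over the aorta over both stages for the members and 8 further gene lists, 1 point per gene tested (vertical offsets within a row only separate points). Filled points have an adjusted p under 0.05 and red bars are list medians. The members' median lay at 0.01 with Gpm6a and Msln to either side, and the smooth muscle median at 0.50.

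Genes with a pattern like that of each member were ranked by Pearson correlation over the 12 arrays among 11214 genes. The arrays form 4 groups and share replicate numbers, and the genes were picked as the highest, so the coefficients are descriptions. Nearest to Gpm6a were Colec12 (r = 0.99), a scavenger receptor, St6gal1 (0.99), a sialyltransferase, and Ehd4 (0.98), a protein of endocytic membranes. Their deviations from the group means also followed those of Gpm6a, with r of 0.97, 0.92 and 0.98, and their own log2 fold changes over both stages were -0.82, -0.46 and -0.62. Nearest to Msln were Tmem107 (r = 0.93), Bdnf (0.92), a neurotrophin, and Dnajc22 (0.92), whose deviations followed those of Msln less closely, with r of 0.59, 0.58 and 0.53.

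Nearest to Krt19 were Hmox1 (r = 0.94), Atp6v1a (0.92) and Tspyl4 (0.90). Nearest to Wt1 were Prss33 (r = 0.94), the olfactory receptor Or4d5 (0.92) and Alx4 (0.92). Their deviations from the group means followed those of Wt1 with r of 0.97, 0.98 and 0.95. Their own log2 fold changes over both stages were only 0.16, 0.21 and 0.14. For Tcf21 the nearest genes were Slc45a3 (r = 0.87), Mss51 (0.85) and Ppp1r18 (0.85). For Krt8 they were Trim40 (r = 0.87), Fam217b (0.86) and Runx3 (0.85), and for Krt18 Gab1 (r = 0.80), Acox3 (0.78) and S100a1 (0.77). The r of the deviations was 0.81 to 0.93 for the genes nearest to Krt19 and 0.79 to 0.83 for Tcf21. It was 0.86 to 0.88 for Krt8 and 0.79 to 0.85 for Krt18. The ranked genes did not include the members, so the members were not ranked against each other. Between pairs of members the correlation of the deviations from the group means ran from -0.71 (Gpm6a and Wt1) to 0.60 (Wt1 and Krt8).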

How the data were processed

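RNA of CD31-positive, CD45-negative cells was hybridized to 12 arrays, 3 in each group. The authors had summarised and normalized the signals before they deposited them on a log2 scale, by a method not stated in the sources read, and they were used without further normalization. The number of arrays limits the precision. Of 26468 probe sets 15307 carried 1 gene symbol, 323 several and 10838 none in the platform table, and symbols were checked through the Entrez IDs of RefSeq. The members and lists were chosen with earlier results of these data known.

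The R 4.3.3 package limma 3.58.1 estimated a mean for each group, and p-values were adjusted by Benjamini-Hochberg over the 18690 probe sets tested. The fit was checked on simulated data with independent noise on each array. That check does not cover the shared deviations of same-numbered arrays given below. All 9 members were named, with the 3 genes most like each member tested. Of the further lists, up to 4 genes called in the vessel contrasts were named, by size over both stages. Genes below the limit or without a call that the text names give the content of a list and were picked after their values were seen.

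Deviations from the group means, over all probe sets tested, correlated at 0.10 to 0.82 between arrays of the same replicate number and at -0.74 to 0.37 between arrays of different numbers. The titles give the numbers, and their meaning was not stated in the sources read. Alternatives were centring, quantile normalization, other limits on low signals, an intensity trend, other choices of probe set, a replicate block, a fit on the compared groups only, the methods' t-test and leaving out each array.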

Additional observations from a re-analysis of the deposited data

How the results depend on the processing

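The calls of Gpm6a and Msln over both stages kept their direction and their call with the values centred or quantile normalized, without a limit on low signals or with a limit 1 log2 unit higher, with an intensity trend, with the replicate block and without any 1 array. With the limit 1 log2 unit higher the other members were not tested. By the methods' t-test (Student, unpaired, two-sided) without adjustment (p under 0.05 and a change of 2-fold or more), 1 member, Gpm6a, was called over both stages, in F and in N. After Benjamini-Hochberg the methods' t-test called both Gpm6a and Msln over both stages. In F it then called 1 member, Msln (methods' t-test adjusted p = 0.0321), and in N 0. The fit on the compared groups also called 0 in N. In the paired fit by replicate block 2 members were called in N, and apart from Krt19 over both stages and Msln in N the block changed no call of a member. Without 1 array, 0 to 2 members were called in F and 0 to 1 in N. The log2 fold change of Krt8 over both stages was -0.073 as the mean of its probe sets, and the difference of the Gpm6a vessel contrast between N and F was 0.0033 after centring. Values near 0 changed sign without 1 array. The ranges were -0.005 to 0.097 for Wt1, -0.034 to 0.107 for Krt8 and -0.032 to 0.068 for Krt18 over both stages, -0.163 to 0.261 in the DA and -0.077 to 0.29 in the aorta for Gpm6a in N over F, -0.109 to 0.058 in the aorta for Msln in N over F, and -0.25 to 0.173 for the difference of the Gpm6a vessel contrast. Over all probe sets the count called was 1358 with the block in N, against 586 without, 1951 in F, against 705, and 3327 over both stages, against 1518. In N it was 318 in the fit on the compared groups, 318 without DA N replicate 2, 344 without aorta N replicate 1 and 371 without aorta N replicate 2. The methods' t-test with Benjamini-Hochberg called 44 in N and 67 in F, and without adjustment, at 2-fold or more, 242 in N, 262 in F and 247 over both stages. In N over F the counts stayed between 0 and 10 in the DA and between 0 and 3 in the aorta. With the second probe set of Krt7, added after the data were seen, its log2 fold change over both stages was 0.896, against 0.256. The causes were not tested. The 3 arrays per group and signals near the spike limit how small a difference of Wt1, Tcf21, Upk1b and the keratins could be detected.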
